A study of Mus musculus with 8 samples.

Results

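Tuft cell genes were taken here as 9 genes that mark the tuft cells of the gut epithelium: Pou2f3, Trpm5, Rgs13, Dclk1, Avil, Sh2d6, Alox5ap, Ptgs1 and Il25. They were found by matching the symbols to the Ensembl IDs of the count table, which lists 54141 IDs, and all 9 were present. Of these, 8 passed the filter on low counts and were among the 16132 genes tested, and Il25 did not pass. Gene expression was measured by RNA-seq on total RNA of epithelial cells of mouse distal colon, which were released from the tissue in EDTA and strained. One genotype was homozygous for a mutant Degs2 allele, labelled Degs2_KO (4 libraries, Degs2_KO1 to Degs2_KO4), and the other was wild type, labelled WT (4 libraries, WT1 to WT4). Both genotypes had the strain background c57bl6/j. Degs2 encodes an enzyme of sphingolipid synthesis needed for phytoceramides, and the design asks what its loss does to the transcriptome of the colonic epithelium. The sources used here do not give the mutant allele, the age of the mice or whether each library came from a separate mouse. The p-values therefore reflect how far these samples spread, and part of that spread may be technical.

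Tuft cells are rare chemosensory cells of the epithelium. Their identity depends on the transcription factor Pou2f3, and they sense luminal compounds through a pathway shared with taste cells, in which a G protein and a phospholipase release calcium and open the cation channel Trpm5. In the mouse gut they secrete the cytokine Il25, cysteinyl leukotrienes and prostaglandins. Il25 and leukotrienes act on innate lymphoid cells, whose Il13 in turn drives stem cells to make more tuft and goblet cells.

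The windows upstream of the annotated starts are shown for 3 of these genes, because Pou2f3 is a POU factor whose family binds an octamer motif and because Avil was the only member with a match to part of it. Sequences are from RefSeq on GRCm38.p6 and cover 250 bases before the start, printed 5′ to 3′ along the gene's strand. The members Rgs13, Ptgs1, Dclk1, Sh2d6, Trpm5 and Avil had entries, with 7 windows in all because Dclk1 has 2, and Pou2f3, Il25 and Alox5ap had none. The window of Avil lies at chr10:127000459-127000708 on the plus strand, that of Trpm5 at chr7:143094643-143094892 on the minus strand and that of Rgs13 at chr1:144177373-144177622 on the minus strand. Capitals mark ATGCAA, the first 6 letters of the octamer, or its reverse complement TTGCAT.
Avil: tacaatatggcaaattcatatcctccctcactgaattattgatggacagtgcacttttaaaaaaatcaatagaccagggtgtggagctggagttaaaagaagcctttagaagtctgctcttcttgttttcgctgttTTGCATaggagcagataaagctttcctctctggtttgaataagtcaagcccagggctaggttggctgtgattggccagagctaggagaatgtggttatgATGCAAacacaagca
Trpm5: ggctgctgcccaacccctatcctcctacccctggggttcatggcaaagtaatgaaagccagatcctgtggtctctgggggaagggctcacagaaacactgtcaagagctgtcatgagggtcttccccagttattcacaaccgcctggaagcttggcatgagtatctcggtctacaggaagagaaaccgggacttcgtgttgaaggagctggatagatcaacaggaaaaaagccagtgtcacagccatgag
Rgs13: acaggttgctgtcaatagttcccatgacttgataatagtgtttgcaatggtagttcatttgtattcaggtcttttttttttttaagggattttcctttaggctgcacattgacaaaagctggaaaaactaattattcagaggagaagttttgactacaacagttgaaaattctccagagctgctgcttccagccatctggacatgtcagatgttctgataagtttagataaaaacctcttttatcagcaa
The Avil window held TTGCAT beginning 114 bases before the start and ATGCAA beginning 15 bases before it. Both strands were searched. The full octamer ATGCAAAT, which contains ATGCAA, was in none of the 7 member windows and in 1.6% of the 32851 windows of the same length in the RefSeq table. The shorter ATGCAA was in 1 of the 7 and in 9.45% of all windows. A match describes the letters in this window and nothing about binding.

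The deposited totals of estimated fragments were between 41622927 and 44606092 per library, after a scaling by 1 factor per library that leaves 32.8 to 49.8 M fragments when undone. Degs2 itself had 53.3, 47.7, 65.6 and 65.9 CPM (counts scaled to a common library size, after TMM normalization) in Degs2_KO1 to Degs2_KO4, against 151, 110, 106 and 120 CPM in WT1 to WT4, so the groups did not overlap in the direction of the labels. Its log2 fold change was -1.07 ± 0.15 (SE, Degs2_KO over WT), with a Benjamini-Hochberg adjusted p of 0.796 by the quasi-likelihood test of edgeR and 6.96e-07 by DESeq2. Over all 16132 genes edgeR called 0 at an adjusted p under 0.05 (183 had an unadjusted p under 0.05), and DESeq2 called 2.

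Degs2_KO3 and WT1 stood apart from the other 6 libraries in genes that mark position along the gut. Hoxd13, a homeobox gene of the most posterior gut, had 60.7, 47.7, 0.300 and 42.5 CPM in Degs2_KO1 to Degs2_KO4, against 0.695, 84.4, 85.3 and 38.8 CPM in WT1 to WT4. Hoxd11 and Hoxd12 were at 0 CPM in both Degs2_KO3 and WT1, while Hoxb13, also posterior, had 91.0 CPM in Degs2_KO3 and 96.6 CPM in WT1, and between 234 and 312 CPM in the other 6. A list of 15 small intestine and proximal gut genes summed to 609 CPM in Degs2_KO3 and 574 CPM in WT1, with 103 to 252 CPM in the other 6. Only 8 of the 15 were tested, and Degs2_KO3 and WT1 were the 2 highest libraries in 4 of those 8. All libraries are labelled as distal colon, so these 2 libraries had lower posterior markers than other libraries of the same label. Results on the tuft cell genes are given with and without them.

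Summed, the tuft cell genes were highest in those same 2 libraries. The 9 genes together had 61.4, 57.5, 95 and 59.3 CPM in Degs2_KO1 to Degs2_KO4, against 92.0, 44.7, 41.2 and 46.0 CPM in WT1 to WT4. Degs2_KO3 had 1.6 times the mean of the other 3 Degs2_KO libraries, and WT1 had 2.09 times the mean of the other 3 WT libraries. With these 2 set aside the summed level was 59.4 ± 1.96 CPM in Degs2_KO and 44.0 ± 2.50 CPM in WT (SD, n = 3 each), a ratio of 1.35, and every Degs2_KO library lay above every WT library. With all libraries it was 68.3 ± 17.9 CPM in Degs2_KO and 56.0 ± 24.1 CPM in WT (SD, n = 4 each), and the groups overlapped. In bulk samples, more tuft cells and more RNA of these genes per tuft cell cannot be told apart.

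**Figure D1:**
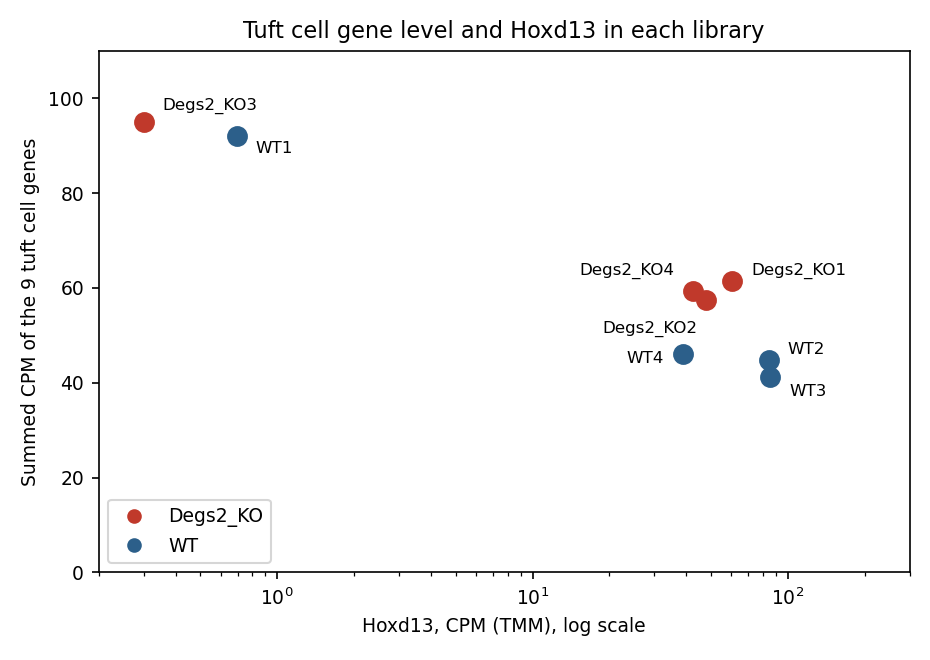
Summed level of the 9 tuft cell genes in CPM against Hoxd13 in CPM on a log axis, with 1 point per library, Degs2_KO in red and WT in blue. Degs2_KO3 and WT1 sit at 95 and 92.0 CPM with Hoxd13 under 1 CPM, and the other 6 libraries form a cluster in which the 3 Degs2_KO points lie above the 3 WT points.

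All 8 tested members had Degs2_KO3 and WT1 as their 2 highest libraries, whereas 17.8% of all tested genes had these as their 2 highest and 16.6% as their 2 lowest. The members were chosen with earlier results of these data known, so the 8 of 8 is a description and is not weighed against those shares. They also share cells and libraries, so the 8 are not separate observations. No test was made of the 2 libraries together against the rest, since the labels do not set them apart and the choice of members was not blind to these data.

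The summed level was shared unequally among the 9 genes. Dclk1 made up 29.4% to 40.1% of the summed CPM across the 8 libraries and Trpm5 19.2% to 22.9%. Avil gave 12.9% to 17.8%, Sh2d6 7.97% to 13.2% and Rgs13 7.87% to 10.3%, while Pou2f3, Alox5ap, Ptgs1 and Il25 each stayed under 6%. Dclk1 also has the longest annotated exons, 15296 bases, so levels are compared between genes per kilobase of exon (mean CPM per kb ± SD, n = 4 each). Sh2d6 had 4.33 ± 1.2 in Degs2_KO and 3.81 ± 2.0 in WT, Rgs13 3.89 ± 1.4 in Degs2_KO and 2.84 ± 1.0 in WT, and Avil 3.13 ± 1.2 in Degs2_KO and 2.68 ± 1.3 in WT. Trpm5 had 2.23 ± 0.53 in Degs2_KO and 1.85 ± 0.89 in WT, Alox5ap 1.71 ± 0.26 in Degs2_KO and 1.31 ± 0.49 in WT, and Dclk1 1.5 ± 0.29 in Degs2_KO and 1.2 ± 0.46 in WT. Pou2f3 had 0.873 ± 0.24 in Degs2_KO and 0.719 ± 0.25 in WT, Ptgs1 0.399 ± 0.27 in Degs2_KO and 0.373 ± 0.26 in WT, and Il25 0.0433 ± 0.047 in Degs2_KO and 0.0518 ± 0.027 in WT. Across the libraries of a genotype, neighbours in this order had overlapping ranges, with 2 exceptions. Ptgs1 lay above Il25 in both genotypes, and Dclk1 lay above Pou2f3 in Degs2_KO. Ranges ignore that genes were measured in the same libraries, and the order within each library was not compared. The order of the means was the same in both genotypes.

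**Figure D2:**
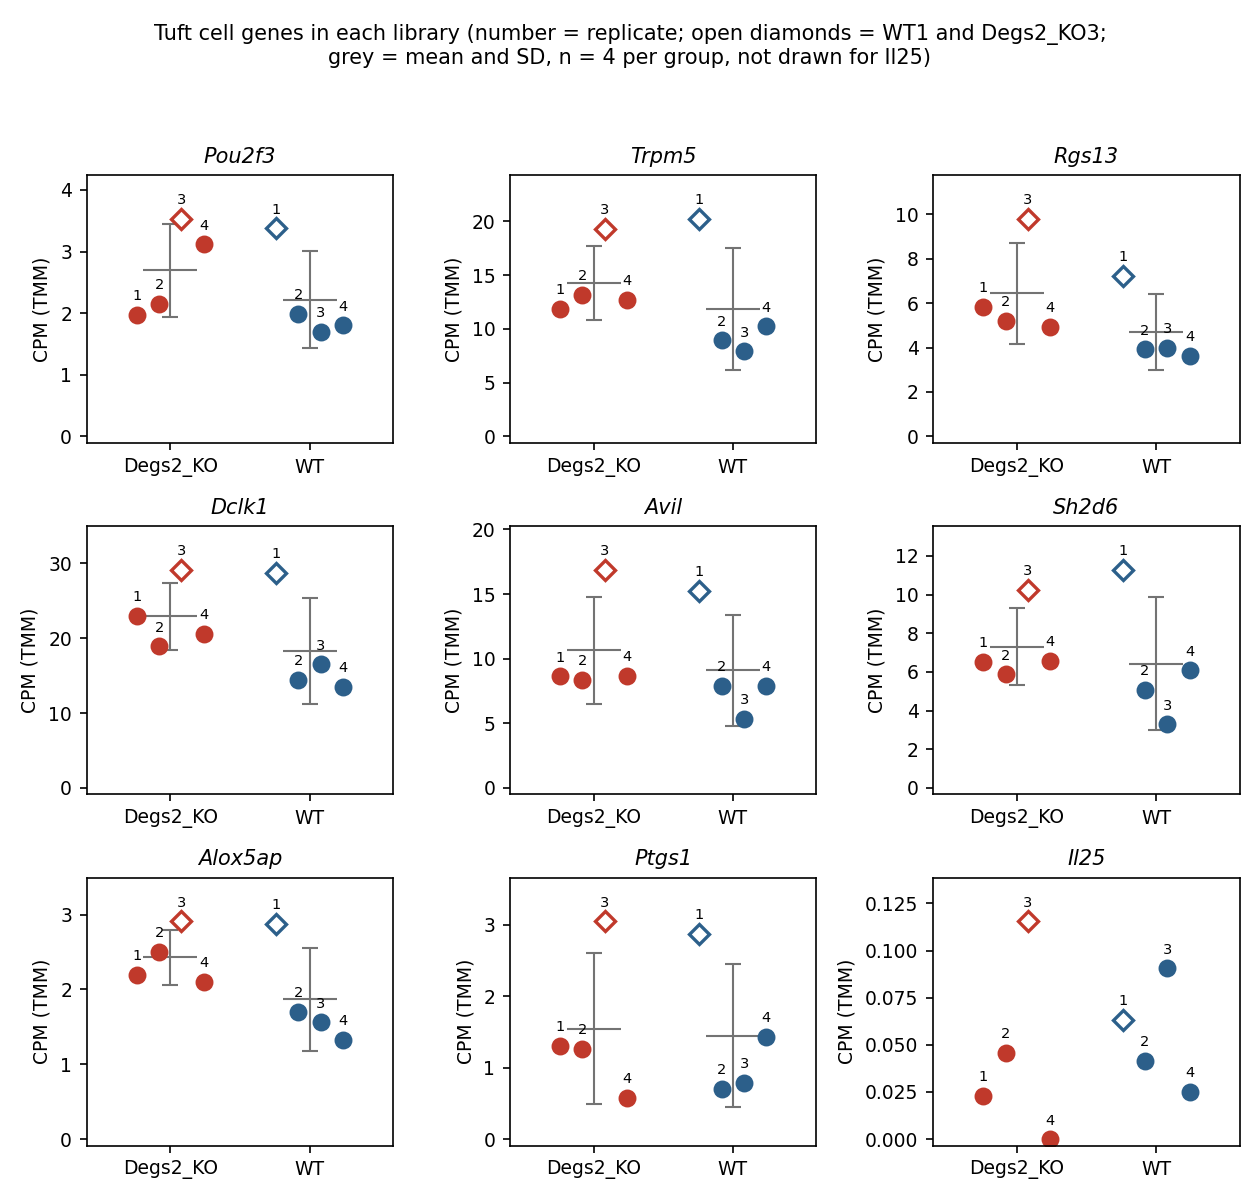
Level of each of the 9 genes in CPM in the 4 Degs2_KO libraries (red, left) and the 4 WT libraries (blue, right), numbered by replicate, with open diamonds for Degs2_KO3 and WT1 and grey lines for mean and SD. The diamonds are the 2 highest points in the 8 tested genes, and in Il25 every value is 0.116 CPM or less.

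Pou2f3, the transcription factor that specifies tuft cells (Ensembl ID ENSMUSG00000032015, chr9:43123939-43210369, minus strand), was at a low level in every library. Coordinates of genes here are those of GENCODE M21 on GRCm38. Pou2f3 had 1.97, 2.16, 3.54 and 3.12 CPM in Degs2_KO1 to Degs2_KO4, against 3.38, 1.99, 1.70 and 1.81 CPM in WT1 to WT4. Degs2_KO3, WT1 and Degs2_KO4 were high, and the groups overlapped. The mean was 2.69 ± 0.753 CPM in Degs2_KO and 2.22 ± 0.784 CPM in WT (SD, n = 4 each). Its log2 fold change was 0.28 ± 0.29 (SE), with an unadjusted p of 0.358, and 0.40 ± 0.23 without Degs2_KO3 and WT1, with an unadjusted p of 0.125.

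Trpm5, the cation channel at the end of the taste-like pathway (ENSMUSG00000009246, chr7:143069153-143094642, minus strand), had 11.9, 13.2, 19.3 and 12.7 CPM in Degs2_KO1 to Degs2_KO4, against 20.3, 8.94, 7.93 and 10.3 CPM in WT1 to WT4. WT1 was the highest library and Degs2_KO3 the next, and the other Degs2_KO libraries all exceeded the other WT libraries. Over all libraries the log2 fold change was 0.27 ± 0.30 (SE), with a 95% interval of -0.42 to 0.96 and an unadjusted p of 0.399. Without Degs2_KO3 and WT1 it was 0.48 ± 0.13 (unadjusted p of 0.0063), and Degs2_KO3 minus WT1 was -0.07 on the log2 scale. Trpm5 overlaps Tssc4 on the opposite strand and the sources used here do not say whether the counting used strand. Tssc4 averaged 14.5 CPM in Degs2_KO and 13.6 CPM in WT.

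Rgs13, a regulator of G-protein signalling that shortens the active state of G proteins (ENSMUSG00000051079, chr1:144138654-144177372, minus strand), had the highest fitted fold change of the 8 with all libraries, and the fourth highest without Degs2_KO3 and WT1, after Alox5ap, Dclk1 and Trpm5. Its values were 5.84, 5.21, 9.80 and 4.92 CPM in Degs2_KO1 to Degs2_KO4, against 7.23, 3.92, 3.99 and 3.64 CPM in WT1 to WT4. Every Degs2_KO library lay above WT2, WT3 and WT4, but WT1 lay above all except Degs2_KO3. The log2 fold change was 0.46 ± 0.30 (SE; unadjusted p of 0.157) with all libraries, 0.47 ± 0.13 without the pair (unadjusted p of 0.00935), and 0.43 between Degs2_KO3 and WT1 alone, 1 library each and not tested. Of the tested members, Rgs13 was the only one whose difference within that pair was above 0.2.

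Dclk1, a microtubule-associated kinase widely used to stain tuft cells (ENSMUSG00000027797, chr3:55242364-55539068, plus strand), had 23.0, 18.9, 29.1 and 20.6 CPM in Degs2_KO1 to Degs2_KO4, against 28.7, 14.5, 16.5 and 13.5 CPM in WT1 to WT4. Degs2_KO3 and WT1 were nearly level, 0.02 apart on the log2 scale, and among the other 6 the groups did not overlap. The log2 fold change was 0.32 ± 0.25 (SE), with an interval of -0.24 to 0.89 and an unadjusted p of 0.226. Without the pair it was 0.50 ± 0.11, with an unadjusted p of 0.00309, the smallest of the members.

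Avil encodes advillin, an actin-binding protein of the villin family found in the tuft (ENSMUSG00000025432, chr10:127000709-127020994, plus strand). It had 8.63, 8.35, 16.9 and 8.68 CPM in Degs2_KO1 to Degs2_KO4, against 15.3, 7.90, 5.32 and 7.90 CPM in WT1 to WT4. Degs2_KO1, Degs2_KO2 and Degs2_KO4 were close together and just above WT2 and WT4, and Degs2_KO3 and WT1 were far above the rest. The log2 fold change was 0.23 ± 0.35 (SE; unadjusted p of 0.534), 0.29 ± 0.17 without the pair (unadjusted p of 0.139) and -0.087 without Degs2_KO3 alone. Avil overlaps Tsfm on the opposite strand, which averaged 15.9 CPM in Degs2_KO and 15.6 CPM in WT.

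Sh2d6, an SH2 domain adaptor (ENSMUSG00000052631, chr6:72513641-72521707, minus strand), had 6.53, 5.87, 10.3 and 6.58 CPM in Degs2_KO1 to Degs2_KO4, against 11.3, 5.08, 3.28 and 6.09 CPM in WT1 to WT4. Its groups overlapped with and without Degs2_KO3 and WT1, and WT3 was low. The log2 fold change was 0.18 ± 0.35 (SE; unadjusted p of 0.615) and 0.40 ± 0.22 without the pair (unadjusted p of 0.118). Left out singly, Degs2_KO3 gave -0.024 and WT3 gave -0.032.

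Alox5ap and Ptgs1 open the leukotriene and prostaglandin routes. Alox5ap encodes FLAP, which hands arachidonic acid to 5-lipoxygenase (ENSMUSG00000060063, chr5:149264767-149288153, plus strand), and had 2.20, 2.50, 2.91 and 2.1 CPM in Degs2_KO1 to Degs2_KO4, against 2.87, 1.70, 1.56 and 1.33 CPM in WT1 to WT4. WT1 was again level with Degs2_KO3, and the other WT libraries all lay below every Degs2_KO library. Its log2 fold change was 0.38 ± 0.26 (SE; unadjusted p of 0.178), and 0.57 ± 0.19 without the pair (unadjusted p of 0.0192).

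Ptgs1 encodes cyclooxygenase 1 (ENSMUSG00000047250, chr2:36230426-36252272, plus strand). It had 1.31, 1.26, 3.05 and 0.577 CPM in Degs2_KO1 to Degs2_KO4, against 2.87, 0.705, 0.793 and 1.43 CPM in WT1 to WT4. Apart from the 2 high libraries the groups were mixed, with Degs2_KO4 the lowest of all. The log2 fold change was 0.09 ± 0.58 (SE), with an interval from 0.429-fold to 2.64-fold, so at this spread neither direction was detectable. Leaving out Degs2_KO3, WT2 or WT3 gave -0.48, -0.14 and -0.11 in that order, and leaving out WT1 gave 0.67.

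Il25, the cytokine by which tuft cells signal to innate lymphoid cells (ENSMUSG00000040770, chr14:54932695-54935837, plus strand), was near the limit of detection. It had 1, 2, 5 and 0 fragments in Degs2_KO1 to Degs2_KO4, against 2, 2, 4 and 1 in WT1 to WT4, 17 in all. Only 2 of the 8 libraries exceeded the limit of 3 fragments that a count of 0 allows, which corresponds to 0.0622 to 0.0948 CPM and covers counting error only. No fold change is given, and a difference between the genotypes was not detectable at this depth. The other 8 members exceeded 3 fragments in every library.

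Set against the background of all genes, the 8 tested members had fitted values above 0 in 8 of 8 cases, where 47.4% of all tested genes did, and a median log2 fold change of 0.27 (all genes: -0.0069). None was called by the quasi-likelihood test of edgeR, against 0.0% of all genes, or by DESeq2, against 0.0124%, each Benjamini-Hochberg adjusted p in edgeR was 0.9996, and 0 of 8 had an unadjusted p under 0.05, against 1.13% of all genes. None had groups that did not overlap, against 1.05%. These counts over the 8 are not of separate observations either, and no test was made of the members as a set. The median moved with single libraries: it was 0.65 without WT1, where 4 of 8 had an unadjusted p under 0.05 against 4.78% of all genes, 0.10 without Degs2_KO3 and 0.14 without WT3. Without Degs2_KO3 the values of Avil, Sh2d6 and Ptgs1 were below 0.

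Without Degs2_KO3 and WT1 the standard errors of the members were 0.11 to 0.41, against 0.25 to 0.58 with all libraries, and the median log2 fold change was 0.44 (all genes: -0.0046). Dclk1, Trpm5, Rgs13 and Alox5ap had an unadjusted p under 0.05, 4 of 8, against 4.01% of all genes. In Dclk1, Trpm5, Rgs13, Avil and Alox5ap, 5 of 8, every Degs2_KO library lay above every WT library, against 4.38% of all genes. As the members share cells and libraries, these counts are not of separate observations and do not test the members as a set. None was called (smallest Benjamini-Hochberg adjusted p of 0.999 in the quasi-likelihood test of edgeR). With a position score, the mean log2 CPM of 7 posterior Hox genes, as a covariate over all 8 libraries, the median was 0.27 and Dclk1, Trpm5 and Rgs13 had an unadjusted p under 0.05, 3 of 8, against 2.85% of all genes. Between Degs2_KO3 and WT1 alone, the median difference of the 8 members was 0.04 on the log2 scale, with 1 library each and no test. Whether the genotype difference differs between that pair and the other 6 libraries was not tested.

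**Figure D3:**
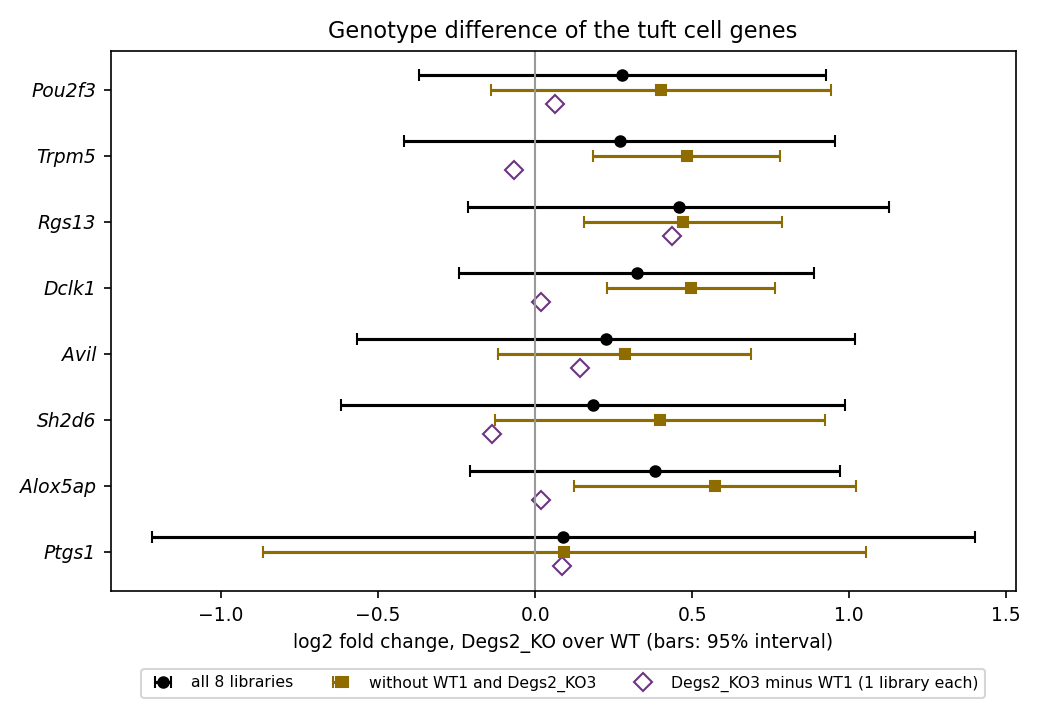
Log2 fold change of each tested member, Degs2_KO over WT, with all 8 libraries (black circles) and without Degs2_KO3 and WT1 (brown squares), with bars for the 95% interval, and the difference of Degs2_KO3 and WT1 alone (open purple diamonds, no error). All black intervals include 0, and the brown intervals of Dclk1, Trpm5, Rgs13 and Alox5ap lie above 0.

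The further lists of tuft cell genes hold members with the same order of libraries and others without it. Among 5 transcription factors, which include Pou2f3, all 5 had values above 0 and a median log2 fold change of 0.30, with 1 of 5 at an unadjusted p under 0.05 (all genes: 1.13%). That gene was Hmx3, a homeobox factor of tuft cells, with 0.991, 1.04, 1.15 and 1.39 CPM in Degs2_KO1 to Degs2_KO4, against 0.862, 0.732, 0.774 and 0.444 CPM in WT1 to WT4. Its groups did not overlap, and Degs2_KO3 and WT1 were not its 2 highest libraries. The log2 fold change was 0.70 ± 0.25 (SE; unadjusted p of 0.0207), and it was not called. The cofactors Pou2af2 and Pou2af3 were not analysed here, since their symbols had no match. Gfi1b, a zinc finger repressor, followed at 0.49 ± 0.37 and Hmx2 at 0.30 ± 0.24. In 3 of the 5, Degs2_KO3 and WT1 were the 2 highest libraries (all genes: 17.8%). Without the pair the median of the 5 was 0.45. Hmx3 at 0.81 ± 0.30 and Gfi1b at 0.82 ± 0.30, 2 of 5, then had an unadjusted p under 0.05 (all genes: 4.01%), and none was called.

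Of 24 structural proteins, adaptors and kinases, which include Dclk1, Avil and Sh2d6, 16 were above 0 and 8 below, 0 had an unadjusted p under 0.05 and the median was 0.10. In 16 of the 24, Degs2_KO3 and WT1 were the 2 highest libraries (all genes: 17.8%), and in 2 they were the 2 lowest (all genes: 16.6%). Irag2 had 15.1 CPM in Degs2_KO3 and 15.2 CPM in WT1, with 23.3 to 35.6 CPM in the other 6. Skap2 had 55.6 CPM in Degs2_KO3 and 55.1 CPM in WT1, with 67.9 to 82.4 CPM in the other 6. Kctd12, an auxiliary subunit of GABA-B receptors, had the smallest p, with a log2 fold change of 0.35 ± 0.19 (SE; unadjusted p of 0.107), followed by Pik3cg, a PI3-kinase catalytic subunit, at 0.24 ± 0.14 and Fyb, an adaptor, at 0.34 ± 0.21. Without the pair 8 of the 24 had an unadjusted p under 0.05 (all genes: 4.01%), and none was called.

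In the taste-like pathway, Trpm5 included, the order of libraries was mixed. Of 8 tested genes 5 were above 0 and 3 below, with a median of 0.14 and 0 at an unadjusted p under 0.05. Degs2_KO3 and WT1 were the 2 highest libraries in 4 (all genes: 17.8%) and the 2 lowest in 2, Itpr3 and Tas1r3 (all genes: 16.6%). Itpr3 had 181 CPM in Degs2_KO3 and 237 CPM in WT1, with 265 to 342 CPM in the other 6. Trpm5 and Plcg2, a phospholipase at 0.18 ± 0.20, had the smallest unadjusted p, followed by the calcium release channel Itpr2 at -0.15 ± 0.23. Of 12 genes of eicosanoid synthesis, which include the members Alox5ap and Ptgs1, 8 were above 0 and 4 below, with a median of 0.06. Ptges3, a cochaperone with prostaglandin E synthase activity, was at 0.22 ± 0.10 (SE; unadjusted p of 0.0643) and Alox5, the 5-lipoxygenase served by FLAP, at 0.45 ± 0.39.

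Alox5 had 5.04, 4.93, 7.6 and 4.64 CPM in Degs2_KO1 to Degs2_KO4, against 7.90, 3.19, 2.11 and 3.03 CPM in WT1 to WT4, an order of libraries like that of Alox5ap. Without the pair its log2 fold change was 0.82 ± 0.19 (unadjusted p of 0.00336), and it was not called. The median of the 12 genes was then 0.05, with Alox5 and Alox5ap, 2 of 12, at an unadjusted p under 0.05 (all genes: 4.01%). Hpgds, a prostaglandin D synthase named after its values were seen, had 8.98, 8.69, 14.3 and 7.6 CPM in Degs2_KO1 to Degs2_KO4, against 14.0, 9.10, 9.35 and 9.10 CPM in WT1 to WT4. Without the pair every Degs2_KO library lay below every WT library, with a log2 fold change of -0.12 ± 0.11 (unadjusted p of 0.301).

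In the type 2 cytokine circuit, 7 genes were tested, 6 above 0 and 1 below, with a median of 0.11 and 0 at an unadjusted p under 0.05. Il4ra, a receptor chain for Il4 and Il13, was at 0.19 ± 0.16, Il33, an alarmin, at -0.71 ± 0.76, and Il17rb, a chain of the Il25 receptor, at 0.16 ± 0.17. The cytokines Il4, Il5 and Il13 were at 0.0316 CPM or less in every library. Retnlb, a goblet cell protein induced by Il13 and named after its values were seen, had 483, 459, 453 and 690 CPM in Degs2_KO1 to Degs2_KO4, against 909, 444, 169 and 168 CPM in WT1 to WT4. WT1 was its highest library, and Degs2_KO3 was the lowest of the Degs2_KO libraries.

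Markers of other cells were compared by library. T cell genes (8 of 8 tested) summed to 18.3 CPM in Degs2_KO3 and 21.9 CPM in WT1, the 2 highest, and to 5.25 to 13.2 CPM in the other 6. By genotype their sums were 8.85 to 18.3 CPM in Degs2_KO and 5.25 to 21.9 CPM in WT. Degs2_KO3 and WT1 were the 2 highest libraries in 5 of the 8 T cell genes (all genes: 17.8%). Their mean deviation from the mean of all libraries, in log2 CPM, was 0.64 in Degs2_KO3 and 0.94 in WT1, against 0.74 and 0.67 for the tuft cell genes. Enteroendocrine genes (12 of 12 tested) summed to 375 CPM in Degs2_KO3 and 273 CPM in WT1, with 110 to 232 CPM in the other 6. For both lists, their part in the tuft cell gene levels was not tested.

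Alox5ap, Ptgs1 and Rgs13 are also expressed by mast cells and other leukocytes, and the part of those cells in their levels was not tested. Of the 9 mast cell genes 5 passed the filter on low counts. Cpa3, Ms4a2, Fcer1a and Mcpt4 were at 0.176 CPM or less in every library, while the protease Mcpt1 had 0.924 to 2.63 CPM in Degs2_KO and 0.725 to 3.81 CPM in WT, and the chymase Cma1 had 0.531 to 3.53 CPM in Degs2_KO and 0.916 to 2.70 CPM in WT. The list's sum, 88.7 to 135 CPM in Degs2_KO and 98.6 to 127 CPM in WT, was nearly all Kit, which colon crypt cells also express. Eosinophil genes, 0 of 4 tested, summed to 0.046 to 0.139 CPM in Degs2_KO and 0.023 to 0.083 CPM in WT. B and plasma cell genes summed to 1.16 to 3.0 CPM in Degs2_KO and 1.58 to 2.86 CPM in WT, and macrophage and neutrophil genes to 5.51 to 6.15 CPM in Degs2_KO and 5.32 to 9.13 CPM in WT.

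Other lineages of the epithelium differed in how many genes had Degs2_KO3 and WT1 as their 2 highest libraries: 1 of 7 goblet, 2 of 10 absorptive, 2 of 10 stem and 7 of 12 enteroendocrine genes (all genes: 17.8%). Degs2_KO3 had the lowest goblet cell sum, 6981 CPM, and WT1 the highest, 31220 CPM, with 2 of the 9 goblet genes left out for a failed estimate. Of the 7 goblet genes tested 6 were above 0, with a median of 0.27, and none was called. For absorptive colonocytes 3 of 10 genes were above 0 (median -0.12), for crypt stem cells 5 of 10 (median 0.005) and for enteroendocrine cells 2 of 12 (median -0.14), with 0 called in each. Without Degs2_KO3 and WT1 the medians were 0.32 for goblet cells, -0.20 for absorptive colonocytes, 0.099 for crypt stem cells and -0.40 for enteroendocrine cells. In that fit 2 of 7 goblet, 1 of 10 absorptive, 1 of 10 stem and 4 of 12 enteroendocrine genes had an unadjusted p under 0.05 (all genes: 4.01%), and none was called. Fibroblast genes (1 of 6 above 0, median -0.72) summed to 14.4 to 60.5 CPM in Degs2_KO and 23.7 to 49.9 CPM in WT. Endothelial and platelet genes (0 of 4 above 0, median -0.59) summed to 6.33 to 9.47 CPM in Degs2_KO and 9.89 to 13.5 CPM in WT. Smooth muscle genes (1 tested) summed to 4.09 to 6.47 CPM in Degs2_KO and 4.01 to 5.79 CPM in WT, and enteric neuron and glia genes (4 tested) to 2.36 to 3.01 CPM in Degs2_KO and 2.61 to 4.58 CPM in WT.

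**Figure D4:**
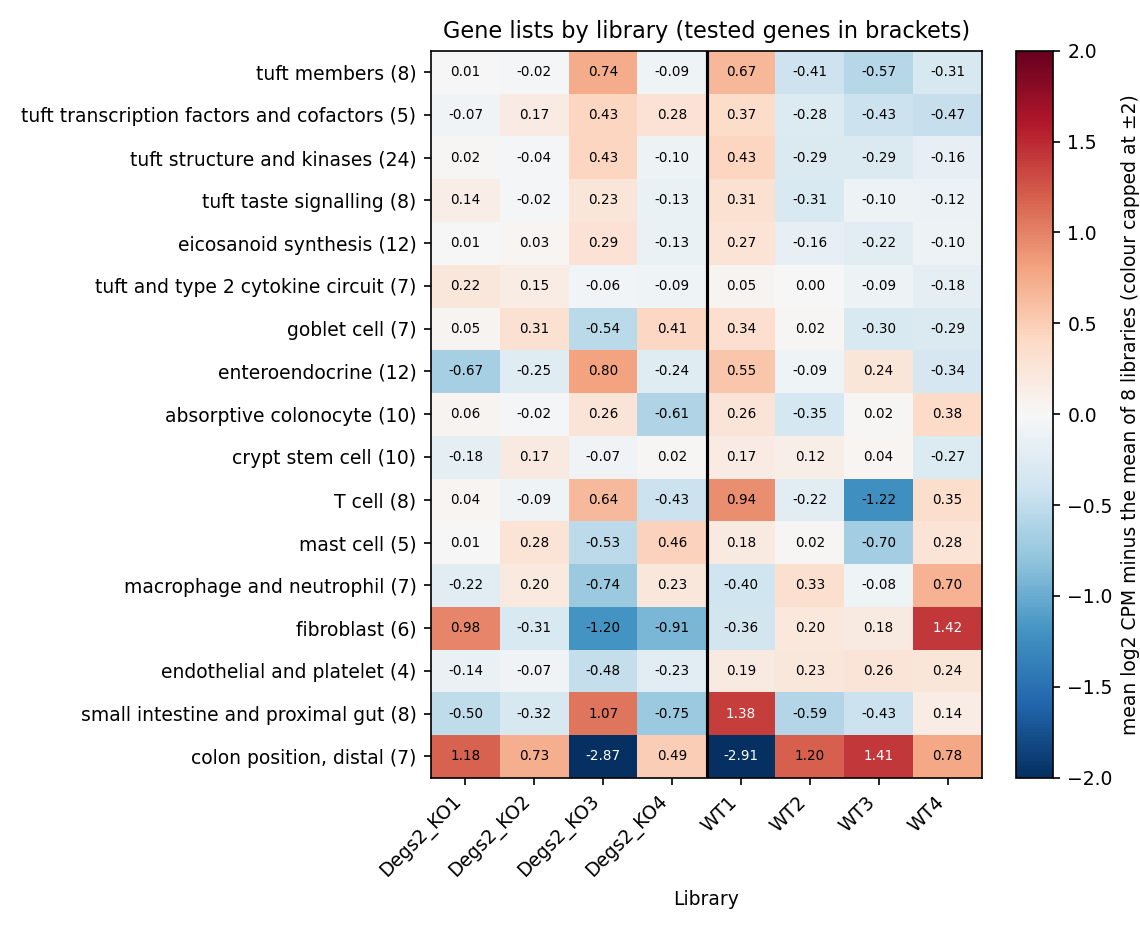
Mean deviation of the tested genes of each list (numbers of tested genes in brackets, colours capped at 2 on either side of 0) from their own mean over 8 libraries, in log2 CPM, for the 4 Degs2_KO libraries (left) and the 4 WT libraries (right). The tuft cell genes are at 0.74 in Degs2_KO3 and 0.67 in WT1, where the posterior position list is at -2.87 and -2.91, and the goblet cell list differs in sign between the 2 libraries.

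The genes whose level across libraries was most like the mean standardized log2 CPM of the tuft cell genes were taken from 11582 named protein-coding genes at 1 CPM or more. The 10 with the highest Pearson r over 8 libraries were Guk1, Fam136a, Slirp, Psmb7, Dusp3, Zfp503, Atp5g1, Xpnpep1, Psma3 and Sh2d7, with r between 0.98 and 0.99. Over the 6 libraries other than Degs2_KO3 and WT1 their r was between 0.90 and 0.99. These values describe likeness only, since the points share library and position, and many genes were searched. Of the 10, Sh2d7, an SH2 domain adaptor, was on a tuft cell list, with 7.24, 8.46, 13.6 and 6.74 CPM in Degs2_KO1 to Degs2_KO4, against 12.3, 5.95, 5.07 and 5.24 CPM in WT1 to WT4. Zfp503, a zinc finger protein, had the widest spread of the 10 as a ratio of the highest to the lowest library, with 8.76 CPM in Degs2_KO3, 9.0 CPM in WT1 and 1.27 to 3.74 CPM in the other 6. Guk1, guanylate kinase, led the 10, with 43.8 CPM in Degs2_KO3, 44.7 CPM in WT1 and 31.7 to 37.1 CPM in the other 6.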

How the data were processed

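RNA-seq was read from 1 table of estimated counts of fragments per gene, deposited by the authors with a status word per value, per the file headers. The submitters' processing notes name Cuffdiff, Cufflinks 2.1.1, TopHat2 2.0.10 and cutadapt 1.9 with mm10. Annotation, order and strand setting: not given in the sources used here. Low values are whole multiples of 1 step per library (0.871 to 1.31), so each library had been scaled, and 96.9% to 97.2% of values up to 100 came out whole within 0.02. The table's 24 other per-sample columns were not used. In 47 genes at least 1 of the estimates had failed (119 values, each listed at 0), and these genes were left out of the tests.

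Groups were taken from the titles. Estimated counts were rounded, filtered with filterByExpr (minimum count 10, total 15), normalized with TMM and tested with edgeR 4.0.16 in R 4.3.3 (two-sided quasi-likelihood F test, group as the only term, Benjamini-Hochberg adjustment over 16132 genes, threshold 0.05). DESeq2 1.42.0 was an alternative, beside other scalings and filters, blocks, a position covariate and left-out libraries. The fit was also run on simulated data, in which no library stood apart as Degs2_KO3 and WT1 do here. That run therefore does not show how the fit performs on these libraries. Log2 CPM used a prior count of 2. Levels per kilobase used the union of GENCODE M21 exons, and promoters are RefSeq's.

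The members and the 21 gene lists were chosen with earlier results of these data known. Named were all members, Degs2, Hoxd13, up to 3 genes per tuft cell list with the smallest unadjusted p, and the 10 genes most like the members. Other genes were added as stated. Of 206 list symbols 1 matched through an older symbol and 3 had no match.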

Additional observations from a re-analysis of the deposited data

Results flagged for a closer look

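Of 24 groups of 4 libraries examined, 5 held 1 library far from the other 3 by Dixon's test at the 95% level. Chance gives about 1 in 20 separate groups, but each flagged library was Degs2_KO3 or WT1, already known to stand apart. The count of 5 is therefore a description and is not weighed against that rate. The summed level of the 9 tuft cell genes was 95 CPM in Degs2_KO3, with 57.5 to 61.4 CPM in the other Degs2_KO libraries, and 92.0 CPM in WT1, with 41.2 to 46.0 CPM in the other WT libraries. Avil was at 16.9 CPM in Degs2_KO3, with 8.35 to 8.68 CPM in the other Degs2_KO libraries. Sh2d6 was at 10.3 CPM in Degs2_KO3, with 5.87 to 6.58 CPM in the others of that genotype. Rgs13 was at 7.23 CPM in WT1, with 3.64 to 3.99 CPM in the other WT libraries. These are the 2 libraries in which Hoxd13 was under 1 CPM, and the part of colon position in these values was not tested. The groups share libraries and cells, so the 5 are not separate observations.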

How the results depend on the processing

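No tuft cell gene was called in any of 18 alternatives. The median log2 fold change of the tested members (0.27) was 0.27 to 0.44 in the 10 alternatives that did not leave out a single library, and 0.10 to 0.65 with 1 library left out. Members with an unadjusted p under 0.05 numbered 0 with all libraries, 3 with the position covariate, 4 without WT1 and Degs2_KO3 and 0 to 4 with 1 library left out, the 4 being without WT1. With 1 library left out (the ends below 0 without Degs2_KO replicate 3 for Avil and Ptgs1 and without WT replicate 3 for Sh2d6), the log2 fold change of Avil ranged from -0.087 to 0.60, Sh2d6 from -0.032 to 0.61 and Ptgs1 from -0.48 to 0.67. Sh2d6 was also below 0 without Degs2_KO replicate 3, and Ptgs1 without WT replicates 2 and 3. The cause was not tested. Genes called over the whole table numbered 2 with DESeq2 and 1 with the position covariate, against 0, and Degs2 was then at -1.06 (adjusted p of 6.96e-07) and -1.08 (adjusted p of 0.036).

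Deviations from the group means of same-numbered libraries had r across genes of -0.42, 0.44, -0.56 and -0.10 for numbers 1 to 4. Degs2_KO3 and WT1 stood apart and carry different numbers, which affects these r whether or not numbers pair libraries. The values therefore cannot decide whether the numbers pair them. With the replicate number as a block the member median was 0.32, with 0 members and 0 genes called, and with close ID numbers of the labels as a block, which makes 3 pairs and leaves WT4 and Degs2_KO2 without a partner, it was 0.34. Ptgs1 did not pass the stricter filter, and Il25 gave no value to vary. The spread between libraries limits these results: the 95% interval of Dclk1 ran from 0.846-fold to 1.85-fold.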
